A study of Rattus norvegicus with 18 samples.

Results

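Avp, Vip, Grp and Sst encode 4 neuropeptides that class the neurons of the suprachiasmatic nucleus (SCN), a small paired nucleus of the hypothalamus and the master circadian clock of mammals. Every probe set was taken whose single gene symbol in the platform annotation was one of these names, which gave 3 of 4737 named genes and 6 of the 8799 probe sets on the array. Avp had 3 of them (M64785_g_at, M25646_at and M64785_at), Sst had 2 (M25890_at and K02248cds_s_at) and Vip had 1 (X02341cds_at). No probe set met the rule for Grp, so the level of Grp was not analysed here. The tissue was SCN dissected from adult male Long-Evans rats that had lived in 12 h of light and 12 h of darkness. From one lights-off (circadian time, CT, 12) the lights stayed off, and sampling began at the next CT 0, with 5 rats per time point. Their RNA was extracted singly and then pooled, so the spread between rats cannot be seen, and 1 pool was assumed for each time point. The groups were 0, 6, 12 and 18 h (day 1) and 24, 30, 36 and 42 h (day 2), that is CT 0, 6, 12 and 18 on each day. Each time point was read on a rat U34A GeneChip, a 1-colour oligonucleotide array, in a technical repeat of 8 arrays and in a first run of 10 arrays, in which the time points 24 h and 36 h each had an array a and an array b.

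Vasopressin, the product of Avp, is made by neurons of the dorsomedial shell of the rodent SCN, where its transcription is driven by the clock and is known to be high in the subjective day. Vasoactive intestinal peptide (Vip) and gastrin-releasing peptide (Grp) mark neurons of the ventrolateral core, which receive input from the retina, and Vip keeps SCN neurons in step with each other. Somatostatin (Sst) is an inhibitory peptide of scattered SCN neurons and of many other hypothalamic neurons. Each peptide is cut from a longer precursor and released from dense-core vesicles.

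Stretches of 30 bases from the RefSeq promoter windows of the 3 measured genes (build GRCr8, each 250 bases before to 50 bases after the annotated start) are shown because they hold the elements through which clock factors and cyclic AMP are known to act on such genes. Capitals mark an E-box (CACGTG) for Avp, a half-site of the cyclic AMP response element (TGACG) for Vip and the full element (TGACGTCA) for Sst.
Avp, chr3:138248670-138248699, minus strand: cattgacaggccCACGTGtgtccccagatg
Vip, chr1:44470371-44470400, plus strand: ggatcaccactgTGACGtctttcgaggagc
Sst, chr11:90461537-90461566, plus strand: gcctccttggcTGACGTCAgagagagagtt
The Avp E-box began 165 bases before the annotated start and the Vip half-site 97 bases before it, whereas the Sst element began at base 3 after it. Both strands were searched over the 300 bases, and the half-site is contained in the full element. The E-box was found in 6.42% of 33469 such windows, the full element in 1.83% and the half-site in 21.2%. The Avp window held 1 E-box and also 1 half-site, whereas the windows of Vip and Sst held 0 E-boxes. These matches describe letters in a window and say nothing of binding in this tissue.

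The deposited intensities were used on the log2 scale after values under 12.1 were set to that floor. A probe set was tested when its geometric mean over the 8 pools was above 121, the median over all non-control probe sets, which left 4370. Of the 6 peptide probe sets, 4 were tested (2 for Avp and 2 for Sst), whereas the Vip probe set and M64785_at lay below the filter. Median intensities were 107.9 to 127.6 on the repeat arrays and 136.5 to 152.3 on the first-run arrays. The geometric mean of the hybridisation controls was 4801 to 6370 on 3 arrays of the first run (12 h, 18 h and 36 h b) and 1118 to 2417 on the other 15, so time-course results are also given without these 3 arrays. Where that left a pool with the repeat alone (12 h and 18 h), the pool value was moved by the mean run difference of its probe set over the other pools. Because the pools are the replicates and each phase had 2 of them, p-values measure the spread between these pools and arrays.

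In both tested Avp probe sets the phase with the lowest level was CT 0, and the highest was CT 12 in one and CT 18 in the other, but neither passed the adjusted test for a 24-h rhythm. In the technical repeat the brighter probe set, M64785_g_at, read 741.6, 835.2, 1152, 1039, 819.6, 1170, 1365 and 1239 from 0 to 42 h. In the first run it read 2027, 3028, 4217 and 3823 from 0 to 18 h, 2128 (a) and 3189 (b) at 24 h, 3067 at 30 h, 2082 (a) and 3173 (b) at 36 h, then 2692 at 42 h. Each run had its lowest value at 0 h, but the highest value fell at 36 h in the repeat and at 12 h in the first run. The first-run 0 h array also had the lowest GAPDH 3′/5′ ratio, 8.55 against 21.7 to 35.2 on the other first-run arrays. This ratio is a sign of RNA or cDNA integrity and is lower where they are more intact. The beta-actin 3′/5′ ratio of that array, 17.0, was in contrast below only that of 18 h (20.9) in that run, so the 2 controls ranked it differently. The part of RNA integrity in the low Avp value was not tested. The repeat array at 0 h, with a GAPDH ratio of 16.8, lay within the 14.3 to 24.8 of its run. With both runs averaged on the log2 scale, the pools read 1226, 1590, 2204, 1993, 1461, 1894, 1873 and 1826. CT 0 was thus the lowest phase on both days, and the pools spanned 1.80-fold.

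A cosine of 24 h fitted to the 8 pools of M64785_g_at reached an amplitude of 0.31 ± 0.10 on the log2 scale (SE) and a peak at CT 12.9, a fold of 1.53 between peak and trough. In limma's F test the unadjusted p was 0.0324 and the p adjusted over 4370 probe sets was 0.746, and the exact permutation test over the 8 pools gave 0.0254, where the smallest p possible is 0.00317. Across all tested probe sets, 0% were called for a rhythm by adjusted p and 6.36% by an unadjusted p under 0.05, so 1 of 4 peptide probe sets below that unadjusted level stands against this background. An amplitude this large or larger was seen in 12.5% of the tested probe sets. The fitted peak stayed between CT 12.0 and CT 13.7 over 22 alternative settings, with adjusted p from 0.568 to 0.984. Without the 3 arrays with high hybridisation controls the amplitude was 0.20 (adjusted p = 0.822).

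**Figure D1:**
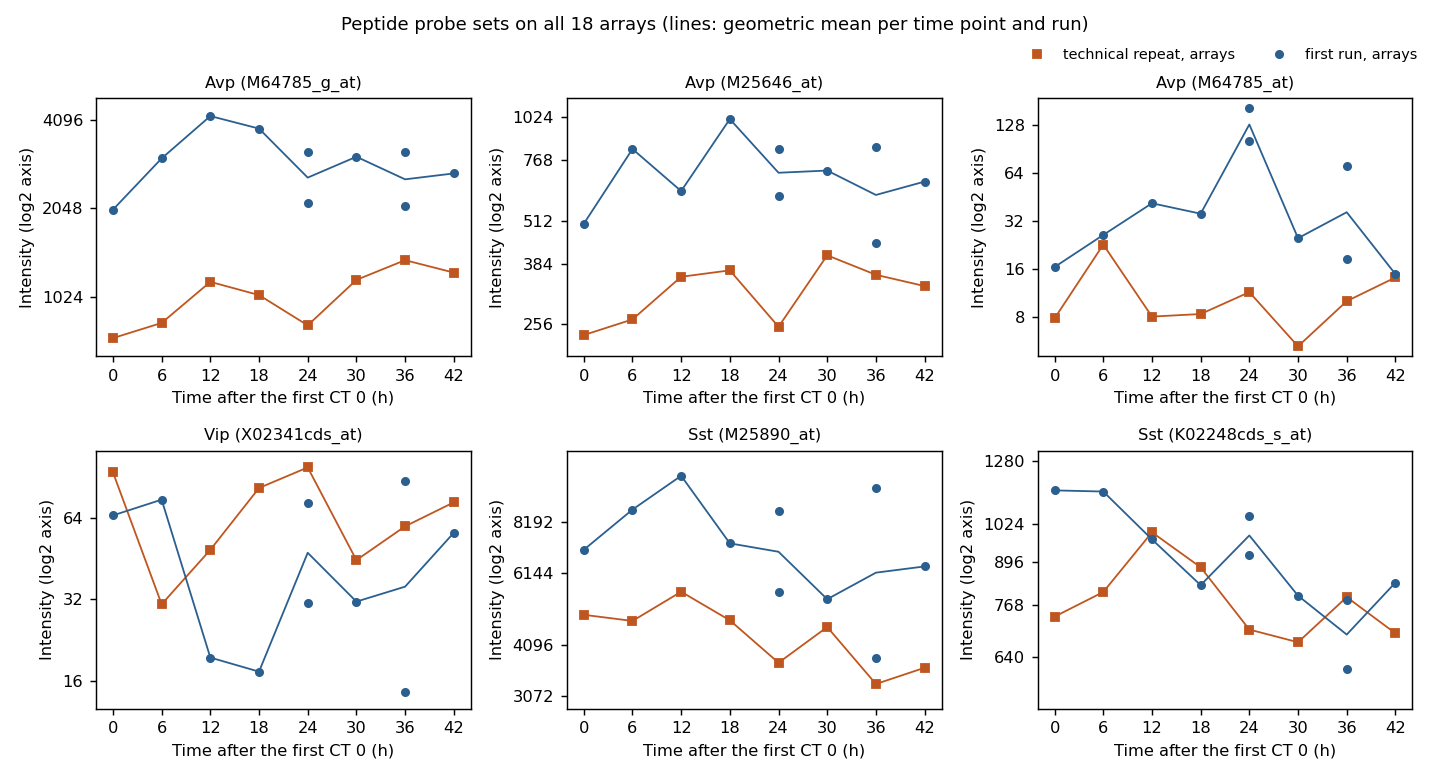
Intensity (log2 axis, different on each panel) of the 6 peptide probe sets against time after the first CT 0, in hours. Squares are arrays of the technical repeat, circles are arrays of the first run, and lines join the geometric mean of each time point within a run. M64785_g_at and M25646_at of Avp and M25890_at of Sst are lower in the repeat at all 8 time points, and the paired arrays of the first run lie far apart at 36 h for several probe sets.

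The end of the subjective day was set against its start for Avp. M64785_g_at averaged 2032 at CT 12 (1873 on day 2 and 2204 on day 1) and 1338 at CT 0 (1461 on day 2 and 1226 on day 1). With 2 pools per phase these did not overlap, but how many of all tested probe sets did likewise was not counted. The difference was 0.60 ± 0.20 (log2, SE, limma), which is 1.52-fold, with an unadjusted p of 0.0120 and an adjusted p of 0.514. For this difference 0% of all tested probe sets were called and 8.67% had an unadjusted p under 0.05. It was 0.69 in the repeat alone (adjusted p = 0.556) and 0.52 in the first run alone (adjusted p = 0.843). Within the repeat it was 0.74 on day 2 and 0.64 on day 1, whereas within the first run it was -0.02 on day 2 and 1.06 on day 1. Without the 3 arrays with high hybridisation controls the difference was 0.40 (adjusted p = 0.670), and without the 0 h pool it was 0.44 (adjusted p = 0.995).

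The phases of M64785_g_at ranked CT 12 (2032), CT 18 (1907), CT 6 (1735) and CT 0 (1338), and no neighbours in this order passed limma's test. CT 12 minus CT 18 was 0.09 ± 0.19, CT 6 minus CT 18 was -0.14 ± 0.19 and CT 6 minus CT 0 was 0.37 ± 0.19 (log2, SE), with adjusted p of at least 0.902. CT 18 minus CT 0, not neighbours in this order, was 0.51 ± 0.19 (limma, unadjusted p = 0.0265, adjusted p = 0.548). For that pair 0 of 4370 tested probe sets were called and 368 had an unadjusted p under 0.05. In the F test for any difference between the 4 phases the adjusted p was 0.681, against a background of 0% called and 7.05% at an unadjusted p under 0.05. For CT 6 minus CT 18 in the cosine fit the adjusted p was 0.972, and 0.0229% of the tested probe sets were called and 4.26% had an unadjusted p under 0.05.

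The second Avp probe set, M25646_at, had the same lowest phase but a flatter course. In the technical repeat it read 238.2, 264.5, 351.8, 367.2, 251.8, 406.1, 356.5 and 330.6 from 0 to 42 h. In the first run it read 501.3, 826.9, 624.1 and 1010 from 0 to 18 h, 602.4 (a) and 826.2 (b) at 24 h, 715.9 at 30 h, 440.0 (a) and 840.3 (b) at 36 h, then 665.0 at 42 h. Time-point means were lowest at 0 h in each run, while the highest fell at 30 h in the repeat and at 18 h in the first run. Its phases ranked CT 18 (534.4), CT 6 (502.2), CT 12 (467.1) and CT 0 (381.6), and only CT 18 minus CT 0 (0.49 ± 0.20) had an unadjusted p under 0.05 (0.0399, adjusted p = 0.578). The rhythm amplitude was 0.15 ± 0.12 with a peak at CT 13.1 (limma, adjusted p = 0.840), and CT 12 minus CT 0 was 0.29 ± 0.24 (adjusted p = 0.740). That difference was 0.53 in the repeat alone and 0.051 in the first run alone, 0.059 without the 0 h pool and 0.23 without the 3 arrays with high hybridisation controls. The amplitude was 0.27 in the repeat alone, 0.052 in the first run alone and 0.054 without the 0 h pool. Over the 8 pools M25646_at and M64785_g_at had a Pearson correlation of 0.785 (exact permutation p = 0.0197, adjusted over 5 pairs 0.0329) and a Spearman correlation of 0.762 (exact permutation p = 0.0368, adjusted 0.0613). Pearson's r was 0.25 without the 2 pools farthest from the median of M64785_g_at, which were the CT 0 pools (0 h and 24 h). The relation thus depended on those pools, though leaving out extreme pools by itself tends to lower r. Within the repeat r was 0.87 (adjusted exact p = 0.0522), within the first run 0.60 (0.232) and without the 0 h pool 0.53 (0.255), so none of these passed, nor did median scaling (r = 0.76, adjusted exact p = 0.0510).

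The third Avp probe set, M64785_at, was too dim to add a time course, with 6 of its 18 values under the floor and a geometric mean of 20.6. Its values were 5.2 to 22.7 in the repeat (median 9.15) and 14.8 to 164.5 in the first run (median 30.8). The array maker's suffixes _g and _s mark sets whose probes are shared by similar transcripts, so M64785_g_at and K02248cds_s_at may read more than 1 transcript. Because a pool is bulk tissue, fewer cells of a type and less RNA per cell cannot be told apart.

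**Figure D2:**
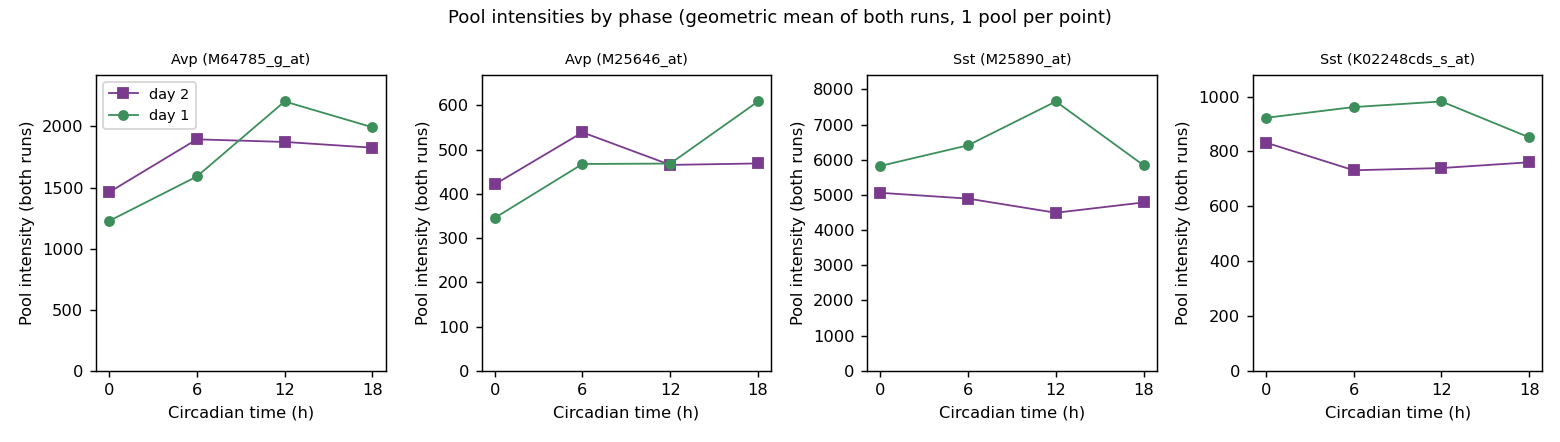
Pool intensity (geometric mean of both runs, linear axis from 0) against circadian time in hours for the 4 tested probe sets, with day 2 as squares and day 1 as circles, 1 pool per point. Both Avp probe sets are lowest at CT 0 on each day, and both Sst probe sets are lower on day 2 than on day 1 at all 4 phases.

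Sst passed no test for a 24-h course, and its pools read lower on day 2 than on day 1 without passing the adjusted test. In the technical repeat M25890_at read 4849, 4684, 5521, 4701, 3700, 4525, 3282 and 3597 from 0 to 42 h. In the first run it read 6994, 8774, 10616 and 7254 from 0 to 18 h, 5503 (a) and 8697 (b) at 24 h, 5294 at 30 h, 3808 (a) and 9930 (b) at 36 h, then 6369 at 42 h. The highest time point was 12 h in both runs, and the first-run arrays a and b at 36 h nearly spanned the range of that run. In pools the levels on day 2 were 5059, 4895, 4492 and 4786, against 5823, 6410, 7656 and 5839 on day 1, at CT 0, 6, 12 and 18. The pools of the 2 days did not overlap, but how many of all tested probe sets were separated likewise was not counted.

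The day term for M25890_at was -0.41 ± 0.14 (log2, SE, limma), a level 1.33-fold lower on day 2, with an unadjusted p of 0.0168 and an adjusted p of 0.997. It was lower on day 2 at 4 of 4 phases in the repeat (geometric means 3749 on day 2 and 4927 on day 1) and at 4 of 4 phases in the first run (6154 on day 2 and 8291 on day 1). For the day difference 0% of the tested probe sets were called and 3.96% had an unadjusted p under 0.05, and 1 of the 4 peptide probe sets was below that level. The difference was -0.39 in the repeat alone, -0.43 in the first run alone and -0.45 without the 3 arrays with high hybridisation controls, with adjusted p from 0.600 to 0.999 over all 21 alternatives. The first-run arrays differed by as much: at 36 h array b was 2.61-fold above array a and at 24 h 1.58-fold, and 11.8% of the tested probe sets differed by at least as much at 36 h.

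K02248cds_s_at, the second Sst probe set, varied with it over the pools. In the technical repeat it read 737.4, 804.7, 994.7, 878.6, 704.3, 673.3, 790.3 and 695.0. In the first run it read 1154, 1150, 970.0 and 824.6 from 0 to 18 h, 1054 (a) and 918.4 (b) at 24 h, 794.3 at 30 h, 611.4 (a) and 783.0 (b) at 36 h, then 832.1 at 42 h. The pools were 832.3, 731.3, 739.5 and 760.5 on day 2 and 922.6, 961.8, 982.3 and 851.2 on day 1. The day term was -0.28 ± 0.13 (limma, unadjusted p = 0.0613, adjusted p = 0.997). It was lower on day 2 at 4 of 4 phases in the repeat and at 3 of 4 in the first run. The 2 Sst probe sets had a Pearson correlation of 0.92 over the 8 pools (exact permutation p = 1.98e-04, adjusted over 5 pairs 9.92e-04; Spearman 0.905, exact permutation p = 0.00456, adjusted 0.0114), and 0.92 without the 2 farthest pools. Within a run it was lower, 0.56 in the repeat (adjusted exact p = 0.377) and 0.57 in the first run (adjusted exact p = 0.232).

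Neither Sst probe set passed a test between phases. The rhythm amplitude was 0.07 ± 0.13 for M25890_at (limma, adjusted p = 0.966) and 0.04 ± 0.11 for K02248cds_s_at (adjusted p = 0.983), and 86.6% and 96.3% of the tested probe sets had an amplitude at least as large. M25890_at ranked CT 12 (5865), CT 6 (5601), CT 0 (5428) and CT 18 (5286), and its CT 12 minus CT 0 was 0.11 ± 0.26 (adjusted p = 0.921). K02248cds_s_at ranked CT 0 (876.3), CT 12 (852.3), CT 6 (838.7) and CT 18 (804.5), and its CT 12 minus CT 0 was -0.04 ± 0.21 (adjusted p = 0.965). No pair of phases had an adjusted p below 0.871 for either probe set. For Avp, in contrast, day 2 minus day 1 was 0.04 ± 0.15 for M64785_g_at and 0.03 ± 0.18 for M25646_at (adjusted p = 0.997 each), each lower on day 2 at 2 of 4 phases; the day difference of Sst was not tested against that of Avp.

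Vip was read close to background. In the technical repeat X02341cds_at read 94.4, 30.7, 48.8, 82.6, 98.4, 44.7, 59.6 and 73.1 from 0 to 42 h. In the first run it read 65.4, 74.8, 19.5 and 17.3 from 0 to 18 h, 72.8 (a) and 31.1 (b) at 24 h, 31.4 at 30 h, 87.7 (a) and 14.5 (b) at 36 h, then 56.4 at 42 h. The highest time-point mean came at 24 h in the repeat and at 6 h in the first run, and the lowest at 6 h in the repeat and at 18 h in the first run. On 4 of 18 arrays it exceeded 77.5, the 95th percentile of the 19 control probe sets for bacterial and yeast transcripts, for which it is not stated whether RNA was added.

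With no level filter, the fitted Vip amplitude was 0.49 ± 0.16 with a peak at CT 23.1 (limma, adjusted p = 0.729, exact permutation p = 0.133). Vip averaged 37.7 at CT 12 (46.1 on day 2 and 30.8 on day 1) and 73.3 at CT 0 (68.4 on day 2 and 78.6 on day 1), a difference of -0.96 ± 0.33 (limma, adjusted p = 0.592). The phases ranked CT 0 (73.3), CT 18 (49.3), CT 6 (42.4) and CT 12 (37.7). The arrays a and b at 36 h, which differed by -2.60 on the log2 scale (b minus a), lay further apart than these phases did.

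The 2 runs gave unlike levels of the same time points, and Avp differed more than most probe sets. M64785_g_at was lower in the repeat at 8 of 8 time points, with a geometric mean of 1023 in the repeat and 2932 in the first run. The difference was -1.52 ± 0.14 (log2, SE, limma), 2.87-fold lower in the repeat, with an adjusted p of 2.07e-05, and 67 of 4370 probe sets had a value as low or lower. M25646_at had a geometric mean of 315.5 in the repeat and 693.3 in the first run, a difference of -1.14 ± 0.13 (adjusted p = 8.01e-05), also lower at 8 of 8 time points. No repeat array reached the lowest first-run array in either probe set (at most 1365 in the repeat and at least 2027 in the first run for M64785_g_at, at most 406.1 and at least 440.0 for M25646_at). How many of all tested probe sets were separated likewise, or were lower at 8 of 8 time points, was not counted.

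Sst differed less between the runs, and its 2 probe sets differed unequally. M25890_at had a geometric mean of 4298 in the repeat and 7143 in the first run, a difference of -0.73 ± 0.12 (limma, adjusted p = 4.28e-04), lower at 8 of 8 time points. K02248cds_s_at had a geometric mean of 778.6 in the repeat and 911.7 in the first run, a difference of -0.23 ± 0.13 (adjusted p = 0.155), lower at 5 of 8. Thus 3 of the 4 tested peptide probe sets were called lower in the repeat, against a background of 48.4% of tested probe sets called in either direction (55% at an unadjusted p under 0.05) and 27.5% called lower. The median difference of all tested probe sets was -0.06.

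The call for these 3 probe sets held under all 18 alternatives. Scaling the arrays to a common median moved the median difference of all tested probe sets to 0.24, so the share of calls that were lower in the repeat was 26.1% then and 56.8% with the deposited scale. Relative to that median the differences were -1.46 for M64785_g_at, -1.07 for M25646_at, -0.67 for M25890_at and -0.17 for K02248cds_s_at under either scale. They are equal by construction, because median scaling moves all probe sets of an array alike. Relative to the median under quantile normalization they were -1.58, -1.09, -0.81 and -0.26. With median scaling the absolute difference of K02248cds_s_at turned to 0.07 (limma, adjusted p = 0.683). Without the 3 arrays with high hybridisation controls the differences were -1.35, -1.06, -0.60 and -0.30. The GAPDH 3′/5′ ratio was 14.3 to 24.8 in the repeat (median 19.5) and 8.55 to 35.2 in the first run (median 26.3). The ratio of the 3′ to the middle GAPDH probe set had a median of 4.23 in the repeat and 7.25 in the first run. The beta-actin 3′/5′ ratio was 2.02 to 7.50 in the repeat (median 4.47) and 2.86 to 20.9 in the first run (median 5.43). The part of RNA integrity in the run difference was not tested.

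**Figure D3:**
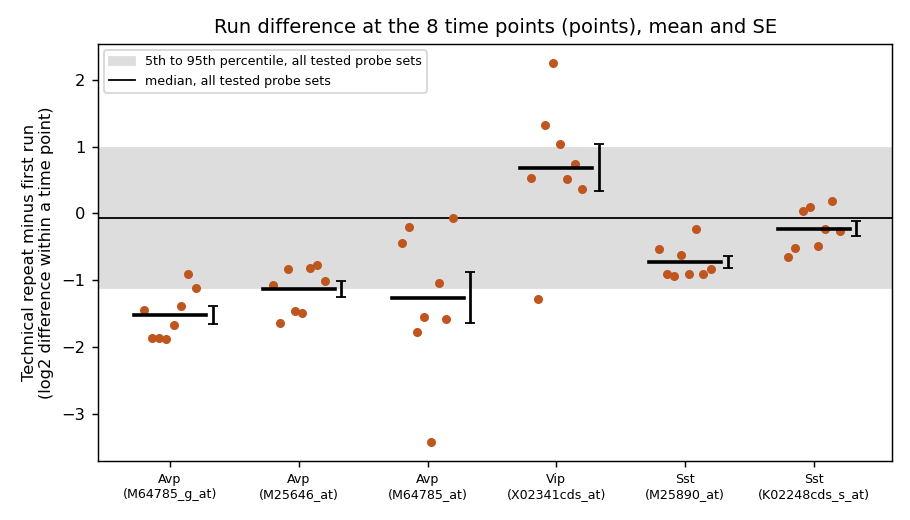
Technical repeat minus first run (log2 difference of intensity) for each peptide probe set. Each point is 1 of the 8 time points, bars are means and error bars are SE; the grey band spans the 5th to 95th percentile of the mean difference of all 4370 tested probe sets and the thin line is their median of -0.06. All 8 points of M64785_g_at, M25646_at and M25890_at lie below 0.

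The dim probe sets did not give 1 direction. M64785_at of Avp was lower in the repeat at 8 of 8 time points (-1.26 ± 0.35, exact sign-flip permutation p = 0.00781, the smallest possible), with a geometric mean of 13.3 in the repeat and 31.9 in the first run. Vip was higher in the repeat at 7 of 8 time points (0.69 ± 0.33, exact sign-flip permutation p = 0.102), with a geometric mean of 62.2 in the repeat and 38.6 in the first run. With no level filter the adjusted p of the run difference of Vip was 0.138 (limma).

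**Figure D4:**
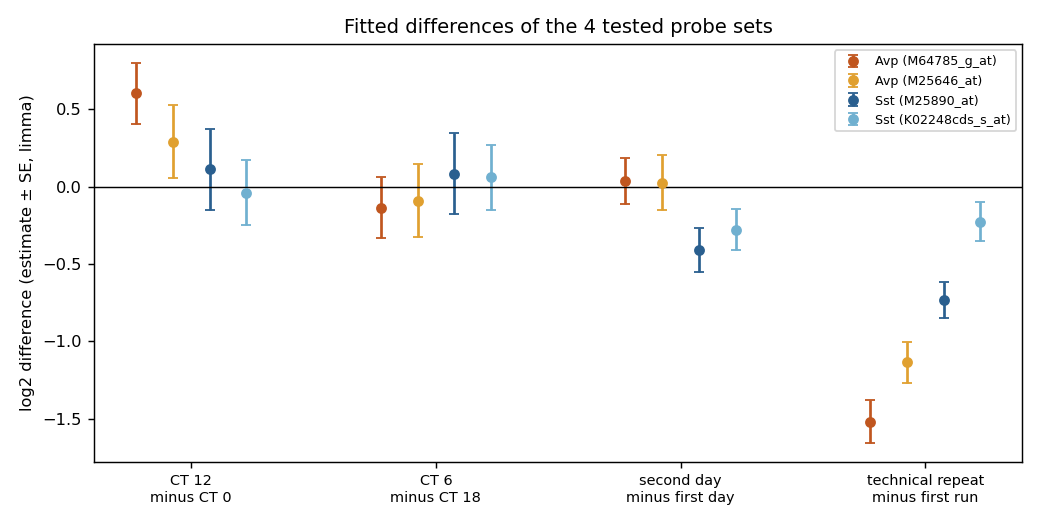
Fitted log2 differences (estimate ± SE, limma) of the 4 tested probe sets for CT 12 minus CT 0, CT 6 minus CT 18, second day minus first day, and technical repeat minus first run. The run difference is the one that passed the adjusted test, for the 2 Avp probe sets and M25890_at of Sst.

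No peptide passed the test of a shared time course between the runs. Over the 8 time points Pearson's r between the runs was 0.38 for M64785_g_at (Spearman 0.19), 0.31 for M25646_at (0.40), 0.62 for M25890_at (0.76) and 0.10 for K02248cds_s_at (0.14), with exact permutation p for Pearson's r of 0.353, 0.454, 0.102 and 0.818. The exact permutation p for Spearman's correlation was 0.665, 0.327, 0.0368 and 0.752. After adjustment of Pearson's p over 4370 probe sets none passed (adjusted p of at least 0.880), and 0% of all tested probe sets did, with 5.7% at an unadjusted p under 0.05. Without the 2 time points farthest from the median r was -0.16, -0.54, 0.74 and 0.30. That of Avp thus depended on those time points, though leaving out extremes by itself tends to lower r. For Vip r was -0.05 (exact permutation p = 0.903) and Spearman's correlation -0.02 (exact permutation p = 0.977).

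Between the peptides, Avp and Vip had opposite courses over the 8 pools. Pearson's r between M64785_g_at and the Vip probe set was -0.87 (exact permutation p = 0.00389, adjusted over 5 pairs 0.00973) and Spearman's was -0.95 (exact permutation p = 0.00114, adjusted 0.00570). It was -0.67 without the 2 pools farthest from the Avp median, -0.23 within the repeat (adjusted exact p = 0.586), -0.78 within the first run (adjusted exact p = 0.114) and -0.60 without the 3 arrays with high hybridisation controls (adjusted exact p = 0.194). The relation of the averaged pools thus did not pass within either run, and the Vip values lie near background. M64785_g_at and M25890_at of Sst had r = 0.15 (Spearman 0.21, adjusted exact p of 0.720 and 0.619), and Vip and M25890_at had r = -0.41 (Spearman -0.26, adjusted exact p of 0.395 and 0.619).

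The genes whose pools followed each peptide most closely are given as a description over 8 pools read on shared arrays. Of 2819 other genes, Acly (ATP citrate lyase, r = 0.99), Atp5po (a subunit of ATP synthase, 0.98) and Tagln3 (a neuronal actin-associated protein, 0.95) were closest to M64785_g_at. Within a run these correlations with Avp were 0.82, 0.76 and 0.86 in the repeat and 0.84, 0.95 and 0.77 in the first run. Closest to M25890_at of Sst were Cyth2 (an exchange factor for ARF GTPases, 0.91), Thop1 (an oligopeptidase, 0.88) and Cep78 (a centrosomal protein, 0.88), which were 0.84, 0.66 and 0.54 within the repeat and 0.45, 0.20 and 0.31 within the first run. Of 2820 genes, Spon1 (a secreted matrix protein, 0.96), Glg1 (a Golgi glycoprotein, 0.95) and Srsf11 (a splicing factor, 0.95) were closest to Vip, with 0.35, 0.69 and 0.44 within the repeat and 0.75, 0.76 and 0.79 within the first run.

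Genes around the peptides showed no time course past the adjusted test, and several differed between the runs. Oxt, the neuropeptide gene next to Avp in the RefSeq order of rat chromosome 3, had a run difference of -0.37 ± 0.18 (limma, adjusted p = 0.114), against -1.52 for M64785_g_at. The geometric mean of Oxt over the pools was 3034, against 1732 for M64785_g_at. Oxt is also among the markers of neighbouring hypothalamic neurons, and the part of such neurons in the level of Avp was not tested. Of the relatives of the peptides, Adcyap1 (the precursor of PACAP) was lower in the repeat (-0.36, adjusted p = 0.0357), and 0 of 2 were called in any time-course comparison. Of 13 receptor genes on the array, 3 passed the level filter (Avpr2, Sstr2 and Sstr4) and 0 were called in any comparison, the smallest rhythm p being 0.290 for Avpr2. Among 14 tested genes of prohormone processing and dense-core vesicles, 3 were lower in the repeat, namely Cpe (-0.36) and Cpd (-0.72), both carboxypeptidases, and Scg5 (-0.29), the chaperone of prohormone convertase 2. Scg2 (0.71) and Chgb (0.43), both granins, were higher in the repeat, so the list moved in both directions, with a median of 0.045 against -0.06 for all tested probe sets. The 5 of 14 called, 3 of them lower, stand beside 48.4% of all tested probe sets called and 27.5% called lower.

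Of 12 measured regulators of peptide gene transcription 7 were tested, and 0 were called for time. Dbp, a clock-controlled factor, peaked at a fitted CT 11.7 with an amplitude of 0.64 (limma, adjusted p = 0.166), and the fitted peak of Avp was at CT 12.9. Bmal1, a core clock gene that pairs with Clock on E-boxes, had a fitted amplitude of 0.48 and peaked at CT 23.3 (adjusted p = 0.746). In the repeat Dbp (-0.67) and Jun (-0.96) were lower and Per2 (1.38) was higher. These 3 of 7 called, 2 of them lower, stand beside 48.4% of all tested probe sets called and 27.5% called lower.

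The tissue label was checked against marker lists. Of 12 SCN neuron markers measured, 9 passed the level filter, Avp and the GABA-synthesis genes Gad1 and Gad2 among them, whereas Vip, Lhx1 and Vipr2 did not. Of these 9, 3 were called lower in the repeat, namely Avp (-1.52), Cck (-0.75) and Calb2 (-0.63), and Gad1 (0.47) was called higher. The 4 of 9 called stand beside 48.4% of all tested probe sets called and 27.5% called lower. Of 12 markers of neighbouring hypothalamic neurons 11 passed. The summed intensity of these 12 was 9430 to 11434 in the repeat and 9109 to 15748 in the first run, and 3 of 11 (Pomc, Npy and Th) were lower in the repeat, close to the 27.5% of all tested probe sets. On day 2 that sum was 9207 to 11244, against 10780 to 12267 on day 1, and the median day difference of the list was -0.18 with 0 of 11 called, beside -0.41 for M25890_at of Sst. The median day difference was 0.0014 for all tested probe sets and 0.036 for the 9 SCN neuron markers. The part of the neighbouring neurons in the day difference of Sst was not tested. At CT 12 the neighbour sum was 9934 on day 2 and 11038 on day 1, against 11244 on day 2 and 10780 on day 1 at CT 0. In the other lists 3 markers were called lower and 2 higher in the repeat of 7 for astrocytes, 1 lower and 3 higher of 7 for oligodendrocytes, 2 lower and 0 higher of 4 for choroid plexus and ependyma, 1 lower and 1 higher of 3 for vessels, and 2 lower and 0 higher of 4 for microglia. All tested probe sets had 48.4% called and 27.5% called lower, and the part of these cell types in the run difference of Avp and Sst was not tested.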

How the data were processed

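SCN tissue pools of 8 time points were read on 18 rat U34A arrays. The authors deposited 1 linear intensity per probe set, already scaled per array (trimmed means of 500.7 to 500.8). Per the labels' protocols, RNA of single rats was pooled and DNase-treated, while how probes were summarised and scaled is not given in the sources used here. Symbols came from the platform annotation (7006 probe sets with 1 symbol, 308 with several, 1426 with none). Here, values below the 10th percentile were floored and log2-transformed. Arrays a and b were averaged, then both runs, so the pool was the replicate. limma 3.58.1 (R 4.3.3) fitted a 24-h cosine and sine, phase means, a day term and within-pool run differences to the 4370 non-control probe sets above the median level, with Benjamini-Hochberg adjustment over all of them at 0.05. The fits were tested on simulated data. Exact permutation tests (two-sided) used Python 3.11.15 and SciPy 1.17.1. The peptides, gene lists and alternatives were chosen with earlier results of these data known. Named from other genes were the 3 most alike each peptide and, from each list, members past the adjusted threshold or at most 2 with the smallest rhythm p. Of 6 planned pairs of the peptide genes, 3 could be formed without Grp; the same-gene pairs of Avp and of Sst were added, and p-values were adjusted over these 5. Arrays limit the precision by their number.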

Additional observations from a re-analysis of the deposited data

How the results depend on the processing

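Under all 18 alternatives in which the run difference was fitted, 3 of the 4 tested peptide probe sets were called lower in the technical repeat. Under every alternative fitted for a time-course comparison, 0 were called. The alternatives gave 568 values of single peptide probe sets, among them rhythm amplitudes and F values, which cannot change sign. Of the 568, 30 changed sign, none of them past the threshold, and so did 5 values of correlations between probe sets. The causes were not tested. For day 2 minus day 1, M64785_g_at was -0.21 in the first run alone and -0.038 without arrays b, and M25646_at was -0.089, -0.060 and, without the 3 arrays with high hybridisation controls, -0.010. That last setting, chosen after the data were seen, also gave M25890_at -0.15 for CT 12 minus CT 0, M25646_at 0.011 and K02248cds_s_at -0.037 for CT 6 minus CT 18, a run-to-run r of -0.075 for M25646_at, and r = -0.15 between M64785_g_at and M25890_at. That r was -0.35 in the repeat alone and -0.0063 with quantile normalization. K02248cds_s_at had a CT 12 minus CT 0 of 0.0054 with quantile normalization, 0.029 without arrays a and 0.30 in the repeat alone, where its CT 6 minus CT 18 was -0.086, and a run difference of 0.069 with median scaling.

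With each pool left out in turn, CT 12 minus CT 0 ranged from -0.22 to 0.40 for M25890_at and from -0.23 to 0.094 for K02248cds_s_at. CT 6 minus CT 18 ranged from -0.29 to 0.18 for M25646_at, -0.052 to 0.26 for M25890_at and -0.069 to 0.25 for K02248cds_s_at. The day difference ranged from -0.054 to 0.14 for M64785_g_at and -0.11 to 0.20 for M25646_at. The run-to-run r ranged from -0.065 to 0.50 for M25646_at and -0.044 to 0.22 for K02248cds_s_at. The correlation with M25890_at ranged from -0.39 to 0.35 for M64785_g_at and from -0.58 to 0.019 for Vip.

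Counts over all tested probe sets moved as well. The rhythm call went to 2 with a filter at the 75th percentile and with a robust, trended prior, and to 1 with a pseudocount of 32, in the repeat alone and with the pool as a random block, against 0 (278 at an unadjusted p under 0.05). CT 12 minus CT 0 gave 1 with the filter at the 75th percentile, the pseudocount and the robust, trended prior, and 2 in the repeat alone, against 0. Phases gave 1 with that filter, with the robust, trended prior, and without arrays b, against 0. CT 6 minus CT 18 gave 0 with no filter, in either run alone, without arrays a, without the 3 arrays, with a day term and with any pool left out, against 1. The day count was 0 to 1 with a pool left out, and the run count was 1210 with the filter at the 75th percentile (fewer tested) against 2114. Signal over background limits Vip and M64785_at.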
